A study of Mus musculus with 12 samples.

Results

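The genes described here are 10 checkpoint ligands and immune evasion genes, Cd274, Pdcd1lg2, Cd276, Cd80, Nectin2, Pvr, Lgals9, Cd47, Nt5e and Ido1, chosen by symbol among the 33219 features of a table of raw counts per gene. All 10 were found. The counts come from bulk RNA-seq of tumor cells of MC38, a mouse colon adenocarcinoma line, that carried WT Rac1 or a homozygous A159V knock-in of Rac1, a small GTPase that controls the actin cytoskeleton. Tumors were raised by placing cells with Matrigel under the skin of C57BL/6 mice of 6 to 8 weeks, female or male. From day 3 on, these mice were given 100 µg of either anti-PD1 or an isotype control IgG at intervals of 3 days, and the tumors were taken on day 13 for magnetic isolation of tumor cells. Each genotype was measured under both antibodies, which gave 4 groups of 3 mice, named here WT IgG and WT anti-PD1 for the unedited cells and likewise A159V IgG and A159V anti-PD1. The study obtained several knock-in clones and, where it names no other, shows the data of 1 of them, so the genotype and the clone cannot be told apart. A change of 1 residue leaves no trace in gene counts, so the counts hold no check of the genotype labels.

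Total counts ranged from 14053582 to 21949942 per sample. Values are given as CPM, each gene's counts relative to the TMM-scaled total of its library, and groups as mean ± SD (n = 3). Per-sample values follow the order of the replicate numbers, which were 1, 2 and 4 in WT IgG, 1, 2 and 5 in A159V IgG and 1, 2 and 3 in both anti-PD1 groups. A gene was called a differentially expressed gene (DEG) when edgeR's quasi-likelihood test gave a Benjamini-Hochberg adjusted p under 0.05 over all 14340 genes tested, with a log2 fold change of more than 0.3 either way. Of the 10 genes, 8 had enough counts to be tested, while Pdcd1lg2 and Nt5e fell below the filter.

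As background, T cells and NK cells carry pairs of activating and inhibitory receptors, and tumor cells can display the ligands that engage them. PD-L1 (Cd274) and PD-L2 (Pdcd1lg2) bind the inhibitory receptor PD1 that anti-PD1 blocks, Cd80 binds CD28 and CTLA4, and B7-H3 (Cd276) is a relative whose receptor is less settled. Nectin2 and Pvr bind the inhibitory receptor TIGIT and the activating receptor CD226, galectin 9 (Lgals9) binds TIM-3 among others, and Cd47 holds back phagocytosis through SIRPα on macrophages. Cd73 (Nt5e) makes adenosine from AMP and Ido1 breaks down tryptophan to kynurenine, and both products restrain T cells. Interferon-gamma is a well-known inducer of Cd274 and Ido1 through IRF1.

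In tumor cells of IgG-treated mice, 5 of the 8 tested genes were higher in A159V than in WT: Cd80, Cd276, Pvr, Nectin2 and Lgals9. Over all genes tested, 28.0% were DEGs in this comparison, with 15.6% higher and 12.4% lower in A159V. None of the 8 was lower by edgeR, although Cd274, Cd47 and Ido1 had negative log2 fold changes, and DESeq2 called Cd274 and Ido1 lower. The samples of the 2 groups did not overlap in 7 of the 8 genes, the exception being Cd47, against 35.8% of all genes tested. The median log2 fold change of the 8 genes was 0.62, against 0.02 over all genes. At an unadjusted p under 0.05, 7 of the 8 genes and 5786 of all genes passed. Cd80 passed the filter on low counts through its A159V samples alone, where it was high, so the counts and medians over the 8 genes are descriptions.

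Under anti-PD1, 2 of the 8 genes, Nectin2 and Cd80, were DEGs between A159V and WT, both higher in A159V, and none was lower by edgeR, DESeq2 or voom. Here 21.4% of all genes tested were DEGs, with 11.2% higher and 10.2% lower. Groups did not overlap in 3 of the 8 genes, Cd80, Nectin2 and Pvr, against 56.1% of all genes. The median log2 fold change of the 8 genes was 0.27, against 0.06 over all genes. At an unadjusted p under 0.05, 5 of the 8 genes and 5133 of all genes passed. Both genotype comparisons come from 1 fit and do not share samples with each other. They share samples with the anti-PD1 comparisons below.

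The split of DEGs over all genes depended on scaling. Under IgG, TMM gave 2231 DEGs above and 1779 below WT in the A159V cells, with a median log2 fold change of 0.02, whereas upper-quartile normalization gave 1337 above and 2313 below and a median of -0.12. With RLE size factors, the counts were 1680 and 2052. Under anti-PD1, the 1613 higher and 1462 lower DEGs became 1123 and 1672 with RLE size factors and 931 and 1788 with upper-quartile normalization. Of the DEGs among the 8 genes, Lgals9 was no longer called with upper-quartile normalization (log2 fold change 0.37, adjusted p = 0.053), while Cd80, Cd276, Pvr and Nectin2 were called higher under IgG with all of these scalings.

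Anti-PD1 changed none of the 8 genes past the threshold by edgeR in either genotype. In WT, 0.628% of all genes were DEGs, with 0.495% higher and 0.132% lower under anti-PD1. An unadjusted p under 0.05 was reached by 4 of the 8 genes (Cd276, Pvr, Lgals9 and Ido1) and by 3937 of all genes. DESeq2 called Cd276 while voom called none. Samples did not overlap in 3 of the 8 genes, Cd276, Pvr and Ido1, against 34.6% of all genes. In A159V, 0.0% of all genes were DEGs, and neither DESeq2 nor voom called any of the 8. Here 2 of the 8 genes (Lgals9 and Ido1) and 521 of all genes had an unadjusted p under 0.05. Samples did not overlap in Cd276, Lgals9 and Ido1, against 11.0% of all genes. The median log2 fold change of the 8 genes was 0.29 in WT and -0.05 in A159V, against 0.014 and 0.0046 over all genes. The difference between the anti-PD1 responses of the genotypes was tested as an interaction. The interaction was not significant for any of the 8 genes by edgeR or voom, with 0.00697% of all genes called. Its unadjusted p was under 0.05 for 3 of the 8 genes (Cd276, Lgals9 and Ido1) and for 2517 of all genes. DESeq2 called the interaction for Ido1.

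**Figure D1:**
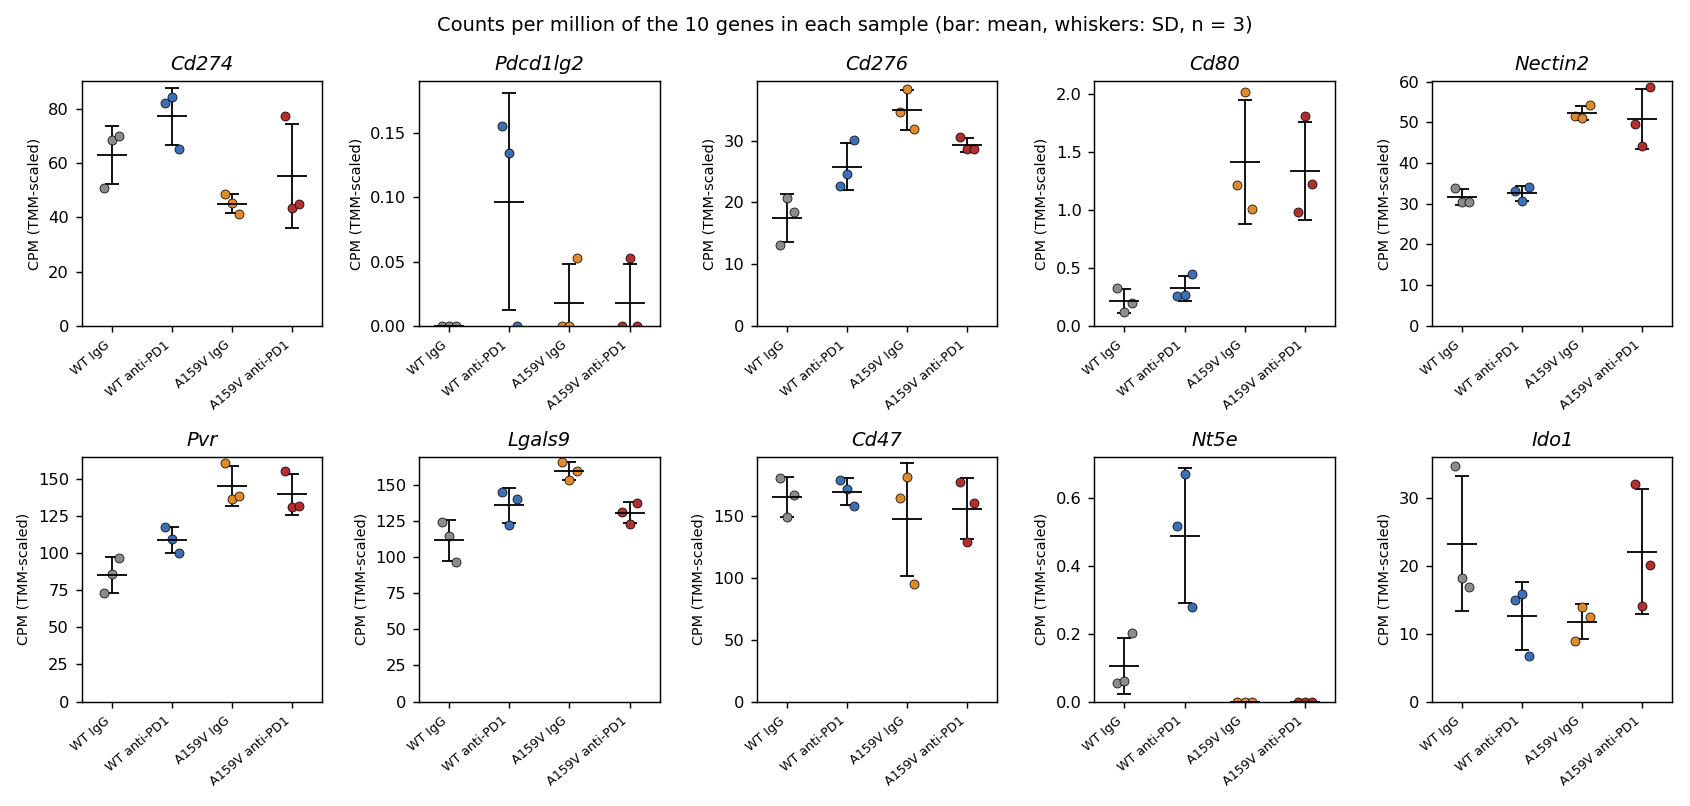
CPM of each of the 10 genes in each of the 12 samples, 1 panel per gene on a linear axis from 0, with points for mice, a bar for the group mean and whiskers for the SD (n = 3), cut at 0. Nectin2, Pvr and Cd80 separate A159V from WT under both antibodies, and Nt5e is at 0 in all 6 A159V samples.

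Levels between genes were compared as CPM per kilobase of exon. In WT IgG the highest of the 10 genes was Lgals9 with 52.2 ± 6.62 CPM per kilobase, followed by Cd47 with 26.4 ± 2.54, Cd274 with 17.4 ± 2.96, Pvr with 13.9 ± 1.96 and Ido1 with 12.8 ± 5.44. Nectin2 had 9.05 ± 0.577 and Cd276 4.76 ± 1.07 CPM per kilobase. Cd80 lay far below them at 0.0586 ± 0.0280, and Nt5e and Pdcd1lg2 were at or near 0. In A159V IgG, Lgals9 was again first with 74.7 ± 2.88 CPM per kilobase, and Pvr with 23.7 ± 2.17 stood beside Cd47 with 23.5 ± 7.29. Nectin2 with 15.0 ± 0.494 then stood above Cd274 with 12.4 ± 0.988, the reverse of their order in WT IgG. The levels of Cd274, Pvr and Ido1 in WT IgG overlapped within mean ± SD, as did those of Pvr and Cd47 in A159V IgG, and Nectin2 lay within the spread of Ido1 in WT IgG, so the order of those genes is not resolved.

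**Figure D2:**
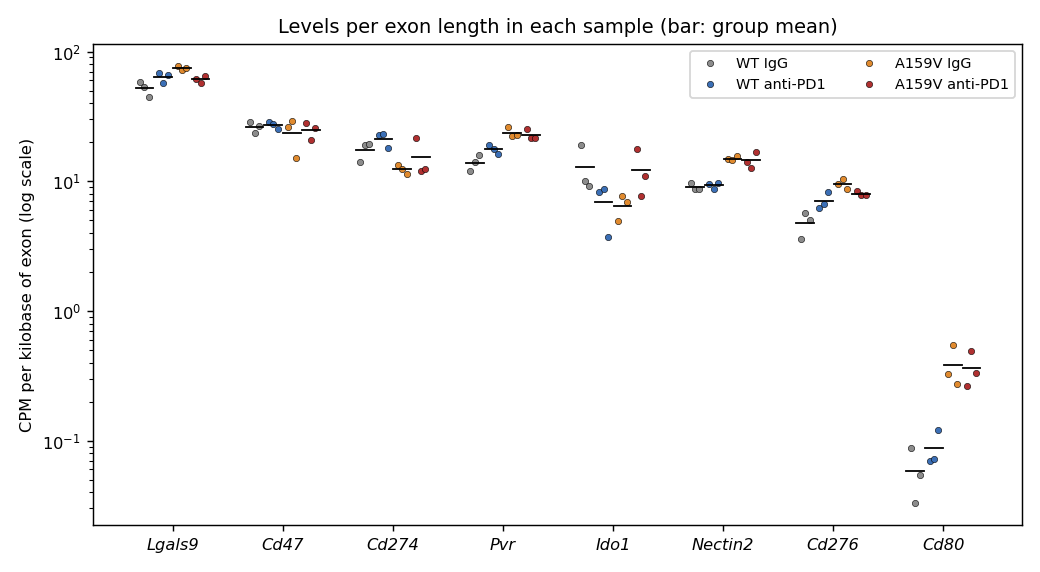
CPM per kilobase of exon on a log axis for the 8 tested genes in each sample, coloured by group, with a bar at the group mean. Lgals9 lies above the other genes in every group (group means of 52.2 to 74.7), and Cd80 lies lowest, with means of 0.0586 and 0.0875 in WT and 0.382 and 0.361 in A159V.

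The promoter windows of 3 genes are shown because Cd274 is the ligand of the blocked receptor and Nectin2 and Cd80 were called higher in A159V under both antibodies. Each is the 250 bases before the RefSeq start of the gene (GRCm38.p6), written 5′ to 3′ on the strand of the gene. Capitals mark matches, on either strand, to the letters of an IRF core (AANNGAAA), an AP-1 site (TGANTCA) or a GC box (GGGCGG). The windows are chr19:29367188-29367437 on the plus strand for Cd274, chr7:19749574-19749823 on the minus strand for Nectin2 and chr16:38458683-38458932 on the plus strand for Cd80. None shares a base with a GENCODE exon of its own gene, and exons of other genes were not checked. The windows of Nectin2 and Cd80 lie inside the span that GENCODE gives the gene.
Cd274: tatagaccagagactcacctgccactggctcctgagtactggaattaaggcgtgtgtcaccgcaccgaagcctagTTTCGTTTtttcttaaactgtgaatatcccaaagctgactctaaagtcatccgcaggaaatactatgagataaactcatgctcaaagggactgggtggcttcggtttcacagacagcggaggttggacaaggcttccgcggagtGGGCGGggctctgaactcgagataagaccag
Nectin2: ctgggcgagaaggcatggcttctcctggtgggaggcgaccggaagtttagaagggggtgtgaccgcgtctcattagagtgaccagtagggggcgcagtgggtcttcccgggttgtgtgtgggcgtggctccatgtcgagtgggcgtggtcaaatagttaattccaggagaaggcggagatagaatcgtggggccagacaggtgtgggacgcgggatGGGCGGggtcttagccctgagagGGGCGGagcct
Cd80: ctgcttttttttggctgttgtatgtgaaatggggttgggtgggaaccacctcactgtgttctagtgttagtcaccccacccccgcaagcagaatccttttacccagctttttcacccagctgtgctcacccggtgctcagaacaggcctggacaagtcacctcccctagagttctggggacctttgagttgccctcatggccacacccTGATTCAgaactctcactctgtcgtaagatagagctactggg
The Cd274 window holds 1 IRF core and 1 GC box, that of Nectin2 holds 2 GC boxes, and that of Cd80 holds 1 AP-1 site. Among 27025 RefSeq promoter windows of the same length, 21.6% hold an IRF core, 32.9% a GC box and 6.87% an AP-1 site. A GAS site (TTCNNNGAA), an E-box (CACGTG) and a CRE (TGACGTCA), present in 7.18%, 6.05% and 1.62% of windows, were not found in the 3 shown. These letters describe the windows, and binding was not measured.

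Cd274 (ENSMUSG00000016496, chromosome 19, 29367455 to 29388095, plus strand) encodes PD-L1. Its CPM was 50.7, 68.5 and 69.9 in WT IgG and 48.5, 45.2 and 41.3 in A159V IgG. All A159V samples thus lay below all WT samples under IgG, with WT replicate 1 close to the A159V samples. The log2 fold change was -0.48 ± 0.21 (SE, 95% confidence interval -0.95 to -0.02), with an adjusted p of 0.11 in edgeR. Under anti-PD1, CPM was 82.0, 84.3 and 65.1 in WT and 77.4, 43.3 and 45.0 in A159V, where replicate 1 lay with the WT samples and the other two below them. The difference was again -0.48 ± 0.21 (adjusted p = 0.12), and without A159V anti-PD1 replicate 1 it was -0.80 (adjusted p = 0.013).

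A contrast of A159V with WT averaged over both antibodies, chosen after the data were seen, gave Cd274 a log2 fold change of -0.48 ± 0.15 with an adjusted p of 0.023 in the same edgeR fit, in which 35.9% of all genes were called. In that contrast Cd80, Cd276, Pvr and Nectin2 were also called higher, and Lgals9 was not called (0.23 ± 0.088, adjusted p = 0.054). Neither were Cd47 (-0.15 ± 0.14, adjusted p = 0.45) and Ido1 (-0.08 ± 0.26, adjusted p = 0.83). Anti-PD1 moved Cd274 by 0.29 ± 0.21 in WT (adjusted p = 0.38) and by 0.30 ± 0.21 in A159V (adjusted p = 1), and the interaction was 0.0034 (95% confidence interval -0.64 to 0.65). In the order of group means, which was WT anti-PD1 (77.1 ± 10.4 CPM), WT IgG (63.0 ± 10.7), then A159V anti-PD1 (55.2 ± 19.2) and last A159V IgG (45.0 ± 3.58), every pair of neighbours overlapped. The Cd274 locus shares 511 exon bases with an antisense gene, AC119228.1, and the strand setting of the counting is not given in the sources used here, so reads of the 2 genes cannot be told apart.

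Pdcd1lg2 (ENSMUSG00000016498, chromosome 19, 29410919 to 29471161, plus strand) encodes PD-L2. Its counts summed to 5 over the WT anti-PD1 samples, to 1 in each A159V group and to 0 under IgG in WT. No sample had more than 3 counts, the amount taken as the detection floor, so no difference between groups was detectable at this depth. The floor corresponded to 0.137 to 0.213 CPM.

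Cd276 (ENSMUSG00000035914, chromosome 9, 58524298 to 58555437, minus strand) encodes B7-H3. Its CPM was 13.1, 20.7 and 18.4 in WT IgG and 34.6, 38.4 and 31.8 in A159V IgG, without overlap. A159V exceeded WT by a log2 fold change of 1.00 ± 0.17 (adjusted p = 0.0014). Under anti-PD1, WT samples had 22.7, 24.6 and 30.1 CPM and A159V samples 30.6, 28.6 and 28.7, so that the groups overlapped and differed by 0.18 ± 0.17 (95% confidence interval -0.18 to 0.55, adjusted p = 0.47).

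The WT samples of Cd276 lay higher under anti-PD1 than under IgG without overlap (log2 fold change 0.57 ± 0.17, adjusted p = 0.087), and the A159V samples lay lower (-0.25 ± 0.17, adjusted p = 1). The interaction was -0.82 ± 0.24 with an adjusted p of 0.19. The WT difference passed the threshold by DESeq2 (adjusted p = 0.031). It also passed when WT IgG replicate 4 was left out (0.61, adjusted p = 0.043). Over all genes, 90 were called for anti-PD1 in WT in the main fit, 1441 by DESeq2 and 3458 without that sample. A Cd276 exon shares 416 bases with Gm10657 on the other strand.

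Cd80 (ENSMUSG00000075122, chromosome 16, 38455561 to 38496335, plus strand) is the CD28 and CTLA4 ligand usually known from antigen-presenting cells. Its CPM was 0.328, 0.122 and 0.201 in WT IgG and 1.22, 2.02 and 1.01 in A159V IgG. These values rest on 2 to 8 counts in each of the 6 WT samples and 18 to 42 in each of the 6 A159V samples, so Cd80 was tested only because of its level in A159V. The log2 fold change under IgG was 2.66 ± 0.46 (adjusted p = 0.0016). Under anti-PD1, Cd80 had 0.259, 0.268 and 0.445 CPM in WT and 0.981, 1.81 and 1.22 in A159V. The log2 fold change was 2.02 ± 0.44 (adjusted p = 0.0068), and no A159V sample reached down to any WT sample under either antibody. With at least 10 counts required in every sample Cd80 was not tested. Its partner Cd86, which binds the same receptors, did not pass the filter, with at most 0.724 CPM in any sample. The A159V IgG samples also had more summed CPM of macrophage and monocyte markers than the WT IgG samples (39.2 to 57.6 against 26.3 to 31.1) and of B cell markers (7.01 to 8.09 against 3.76 to 6.17). In A159V IgG, most of the first sum was Cd68 (40.7 ± 8.45 CPM) and most of the second was Cd79a (6.15 ± 0.596). There, Ptprc had at most 4 counts, Adgre1 at most 1 and Ms4a1 0 counts in any sample. The part of such cells in the level of Cd80 was not tested.

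Nectin2 (ENSMUSG00000062300, chromosome 7, 19716644 to 19750483, minus strand) and Pvr (ENSMUSG00000040511, chromosome 7, 19903578 to 19921160, minus strand) are cell adhesion molecules of neighbouring loci. Nectin2 had 33.9, 30.5 and 30.4 CPM in WT IgG and 51.6, 51.0 and 54.3 in A159V IgG. The log2 fold change was 0.73 ± 0.13 (adjusted p = 0.0017). Under anti-PD1, CPM was 33.1, 30.6 and 34.0 in WT and 49.5, 44.3 and 58.7 in A159V, a log2 fold change of 0.64 ± 0.13 (adjusted p = 0.0038). All 6 A159V samples were above all 6 WT samples. Anti-PD1 itself moved Nectin2 by 0.04 ± 0.13 in WT (95% confidence interval -0.23 to 0.32) and by -0.04 ± 0.13 in A159V (-0.31 to 0.23). The antisense gene Gm20512, which shares 135 exon bases with Nectin2, had at most 1 count in any sample.

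Pvr had 72.9, 85.7 and 96.8 CPM in WT IgG and 160.3, 136 and 138 in A159V IgG. This was a log2 fold change of 0.77 ± 0.14 (adjusted p = 0.0018), without overlap. Under anti-PD1 the WT samples had 117, 109 and 100.1 CPM and the A159V samples 155, 131 and 132, again without overlap. That difference of 0.36 ± 0.14 did not pass (adjusted p = 0.077). Over both antibodies, every A159V sample of Pvr lay above every WT sample. In WT, all anti-PD1 samples of Pvr lay above all IgG samples (0.35 ± 0.14, adjusted p = 0.13). Without WT IgG replicate 4 both differences passed (0.36 between genotypes under anti-PD1 and 0.45 for anti-PD1 in WT, adjusted p = 0.048 and 0.035). The genotype comparison under anti-PD1 does not hold that sample, and for anti-PD1 in WT 3458 genes were called without it, against 90 in the main fit. The interaction for Pvr was -0.41 ± 0.19 (adjusted p = 0.29).

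Lgals9 (ENSMUSG00000001123, chromosome 11, 78962974 to 78984946, minus strand) encodes galectin 9, a secreted lectin that binds sugar chains on its receptors. Its CPM was 124, 114 and 96.2 in WT IgG and 166, 154 and 159.5 in A159V IgG. A159V was thus higher without overlap (log2 fold change 0.52 ± 0.12, adjusted p = 0.0094). Under anti-PD1, CPM was 145, 122 and 140.2 in WT and 131, 123 and 137 in A159V, which overlapped (-0.06 ± 0.12, 95% confidence interval -0.33 to 0.21). In A159V, all anti-PD1 samples lay below all IgG samples (-0.29 ± 0.12, adjusted p = 1), and the interaction was -0.57 ± 0.18 (adjusted p = 0.21). The IgG difference was no longer called in a fit of the WT IgG and A159V IgG samples alone (0.44, adjusted p = 0.14).

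Cd47 (ENSMUSG00000055447, chromosome 16, 49800533 to 49915010, plus strand) is the signal to macrophages that restrains phagocytosis. In WT it had 181, 149 and 167 CPM under IgG and 179, 172 and 158 under anti-PD1. The A159V samples had 165, 182 and 95.5 CPM under IgG and 178, 129 and 161 under anti-PD1. All groups overlapped, and A159V IgG replicate 5 was the lowest sample. The log2 fold change between genotypes was -0.17 ± 0.20 under IgG (95% confidence interval -0.61 to 0.27, adjusted p = 0.56) and -0.12 ± 0.20 under anti-PD1 (-0.57 to 0.32, adjusted p = 0.70).

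Nt5e (ENSMUSG00000032420, chromosome 9, 88327197 to 88372092, plus strand) encodes CD73, the enzyme that makes adenosine outside the cell. It had 6 counts in WT IgG and 25 counts in WT anti-PD1, summed over 3 samples each, and 0 counts in all 6 A159V samples. Its CPM was 0.0546, 0.0612 and 0.201 in WT IgG and 0.518, 0.670 and 0.278 in WT anti-PD1. Taking 3 counts per library as the floor, the WT anti-PD1 mean of Nt5e was about 3.00 times the mean floor of the A159V anti-PD1 samples. That floor was 0.163 CPM, and WT anti-PD1 replicate 3, with 0.278 CPM, lay closest to it. The WT IgG mean of 0.106 CPM was itself under the floor. Without a filter on low counts, edgeR called Nt5e lower in A159V under anti-PD1 (adjusted p = 0.0026) and not under IgG (adjusted p = 0.075), and the fitted fold changes are not given because they depend on the prior count.

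Ido1 (ENSMUSG00000031551, chromosome 8, 24584136 to 24597009, minus strand) is the tryptophan-degrading enzyme. Its CPM was 34.8, 18.3 and 16.9 in WT IgG and 8.94, 13.97 and 12.5 in A159V IgG. All A159V samples were below all WT samples under IgG, with a log2 fold change of -0.98 ± 0.37 and an adjusted p of 0.068 in edgeR. DESeq2 called it (-1.07, adjusted p = 0.021), while without WT IgG replicate 1 it was -0.64 (adjusted p = 0.22). Under anti-PD1 the WT samples had 15.1, 15.96 and 6.79 CPM and the A159V samples 32.1, 14.1 and 20.2, overlapping and opposite in sign (0.81 ± 0.37, adjusted p = 0.14).

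The anti-PD1 samples of Ido1 were all below the IgG samples in WT (-0.89 ± 0.37, adjusted p = 0.15) and all above them in A159V (0.90 ± 0.37, adjusted p = 1). The interaction of 1.79 ± 0.53 had an adjusted p of 0.19 in edgeR, 0.043 in DESeq2 and 0.046 in edgeR without WT IgG replicate 4. Over all genes, the interaction was called for 1, 294 and 1182 genes in the same order. One sample in each of WT IgG and A159V anti-PD1, replicate 1 in both, was well above the other 2 of its group.

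**Figure D3:**
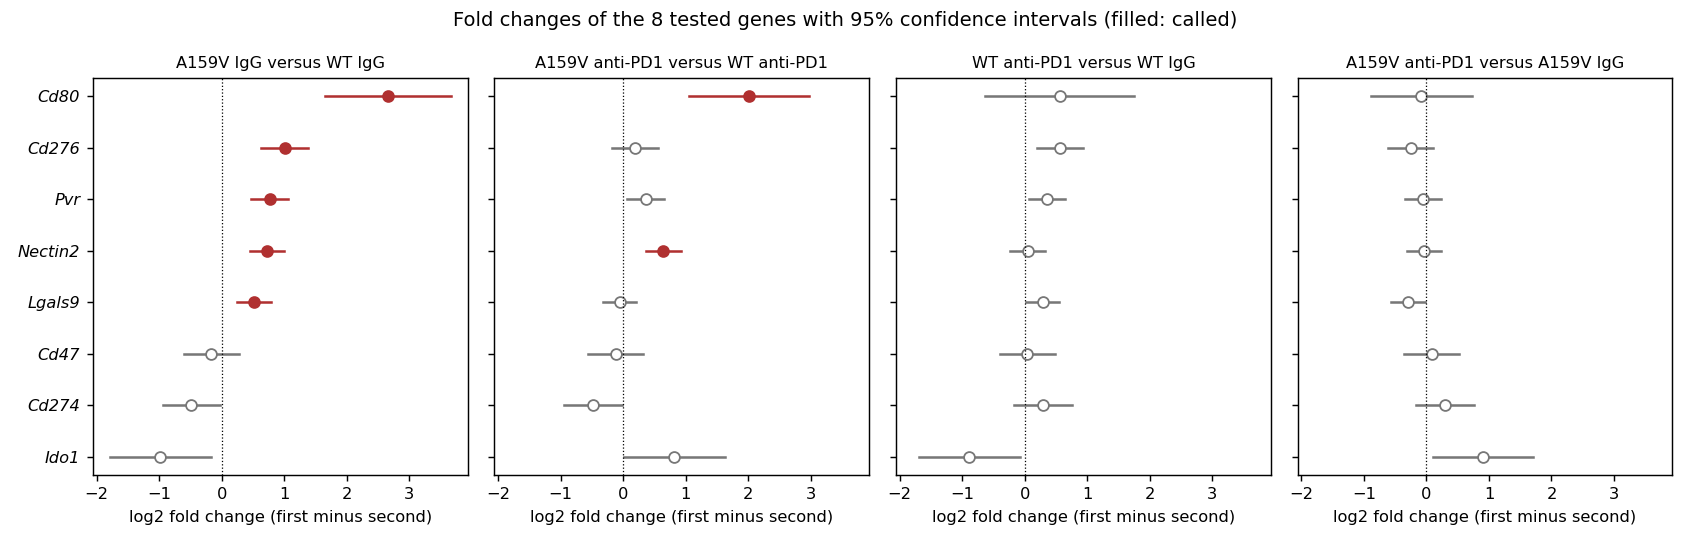
Log2 fold changes (points) with 95% confidence intervals (lines) of the 8 tested genes in the 4 pairwise comparisons, from the edgeR fit of 12 samples, with filled red points for DEGs. The 5 filled points under IgG and the 2 under anti-PD1 all lie to the right of 0, and the panels for anti-PD1 versus IgG hold no filled point.

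Among 25 regulators of PD-L1, a list of its interferon pathway and of proteins that act on its transcript or stability, 9 were DEGs in A159V IgG versus WT IgG, 6 higher and 3 lower, against 28.0% of all genes (median log2 fold change 0.22, against 0.02 over all genes). Cmtm6, which protects PD-L1 from breakdown, was higher in A159V, with 32.9, 41.3 and 41.2 CPM in WT IgG and 70.9, 70.2 and 60.5 in A159V IgG (log2 fold change 0.80 ± 0.15, adjusted p = 0.0022). Ifngr1, a chain of the interferon-gamma receptor, was lower, with 45.8, 40.9 and 46.3 CPM in WT IgG and 30.6, 32.9 and 31.0 in A159V IgG (-0.49 ± 0.12, adjusted p = 0.011). Irf1, the transcription factor downstream of it, had 451, 377 and 363 CPM in WT IgG and 190.0, 239 and 265 in A159V IgG (-0.78 ± 0.16, adjusted p = 0.0047). Stat3 was higher (0.84 ± 0.16, adjusted p = 0.0028), and Socs1, an inhibitor of JAK-STAT signalling, was lower (-0.86 ± 0.22, adjusted p = 0.014).

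Under anti-PD1, 4 of the 25 regulators were DEGs between the genotypes, 1 higher and 3 lower in A159V, against 21.4% of all genes (median -0.04, against 0.06 over all genes). Cmtm6 was higher by 0.48 ± 0.15 (adjusted p = 0.035), Ifngr1 lower with -0.79 ± 0.12 (adjusted p = 9.2e-04), Socs1 lower with -0.87 ± 0.23 (adjusted p = 0.016) and Socs3, another JAK-STAT inhibitor, lower with -0.82 ± 0.21 (adjusted p = 0.014). The call of Cmtm6 under anti-PD1 was kept in 10 of 20 alternatives, and those of Socs1 and Socs3 in 17 of 20 each. Irf1 differed between the genotypes by -0.02 ± 0.16 under anti-PD1 (adjusted p = 0.95).

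The list of receptors held those of these ligands and some of other ligands, Icos, Klrk1 and Lag3 among them. Such receptors are carried mainly by leukocytes, and 12 of the 17 found were tested. In A159V IgG versus WT IgG, 5 were DEGs, 1 higher and 4 lower, against 28.0% of all genes (median -1.50, against 0.02). Under anti-PD1 8 were DEGs, all lower in A159V, against 21.4% of all genes (median -1.84, against 0.06), and in WT 2 of the 12 were called higher with anti-PD1, against 0.628% (median 1.57, against 0.014). Some receptors, Icos, Ctla4 and Klrk1 among them, passed the filter only through WT samples, where they were high, so these counts and medians are descriptions. Pdcd1, which encodes PD1, had 0.437, 0.0612 and 0.201 CPM in WT IgG and 1.66, 2.48 and 1.34 in WT anti-PD1 (log2 fold change 2.90 ± 0.54, adjusted p = 0.037), and 0.272, 0.532 and 0.334 in A159V anti-PD1 (-2.23 ± 0.51 against WT anti-PD1, adjusted p = 0.0081). The rise of Pdcd1 in WT passed in 8 of 19 alternatives. Icos, a costimulatory receptor, had 16 to 24 counts in each WT anti-PD1 sample (0.828 to 1.61 CPM) and 0 to 2 counts in every other sample, and its tests are not given.

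Tigit, the receptor of Nectin2 and Pvr, had 1.29, 1.54 and 0.835 CPM in WT anti-PD1 and 0.654, 0.532 and 0.389 in A159V anti-PD1 (-1.20 ± 0.39, adjusted p = 0.043, a call kept in 10 of 19 alternatives), and it was not a DEG under IgG (-0.94 ± 0.39, adjusted p = 0.090). Cd226, its activating counterpart, was seen only in WT anti-PD1, at 0.0557 to 0.268 CPM, and was not tested. Havcr2, which encodes TIM-3, had 3.77, 8.62 and 7.48 CPM in WT IgG and 9.73, 16.2 and 11.5 in A159V IgG (0.92 ± 0.30, adjusted p = 0.039), a call kept in 9 of 20 alternatives. Lag3 was lower in A159V under IgG (-2.07 ± 0.41, adjusted p = 0.0035) and under anti-PD1 (-1.42 ± 0.40, adjusted p = 0.023), where the call was lost without WT anti-PD1 replicate 2 or 3 or A159V anti-PD1 replicate 2 or 3 (adjusted p = 0.067 to 0.090). Ctla4 had 11 to 26 counts in the WT anti-PD1 samples and 0 to 2 in all others. Klrk1, an activating receptor of NK cells, had 23 to 35 counts in the WT anti-PD1 samples, 1 to 13 in WT IgG and 0 to 1 in A159V. Sirpa, the receptor of Cd47, had 0.0529 to 0.096 CPM (1 to 2 counts) in A159V IgG and 0.0612 to 0.929 CPM in WT IgG, with overlapping samples. It passed the filter only through WT samples, so its tests are not given. Entpd1, the enzyme upstream of Nt5e, was not tested, with at most 1.34 CPM.

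**Figure D4:**
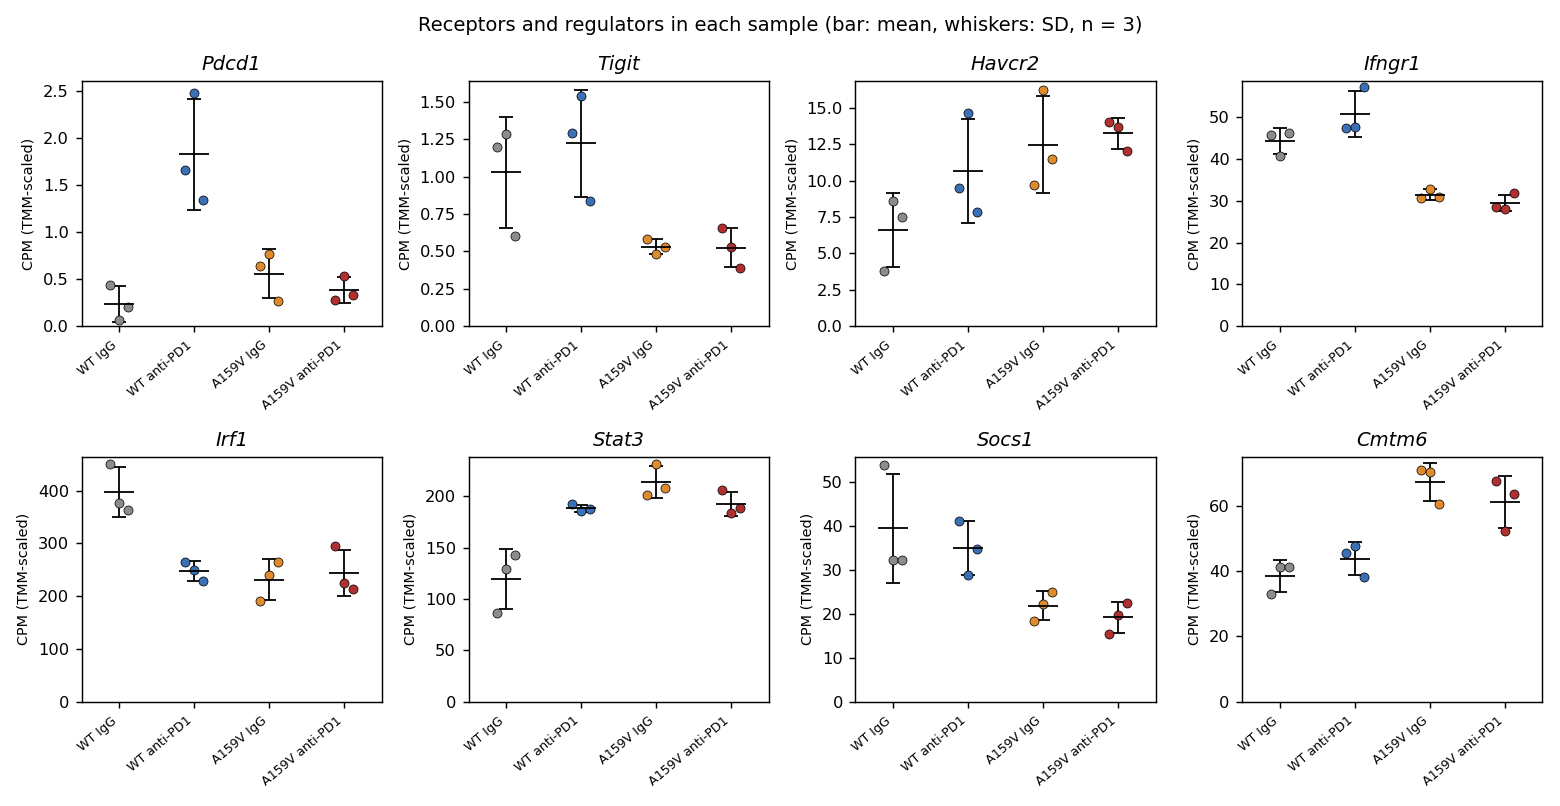
CPM in each sample, on linear axes from 0, of 3 receptors (Pdcd1, Tigit, Havcr2) and 5 regulators of PD-L1 (Ifngr1, Irf1, Stat3, Socs1, Cmtm6), with the group mean as a bar and the SD as whiskers (n = 3). Pdcd1 is highest in WT anti-PD1 (1.34 to 2.48 CPM), Ifngr1 is lower and Cmtm6 higher in all A159V samples than in all WT samples, and Irf1 is highest in WT IgG.

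Of 32 other ligands of T cell and NK cell receptors, 21 were tested, and 4 were DEGs between the genotypes under IgG, 1 higher and 3 lower, against 28.0% of all genes (median -0.06, against 0.02). Nectin1, the adhesion relative of Nectin2, was the 1 higher, with 4.37, 8.81 and 6.32 CPM in WT IgG and 16.1, 17.4 and 16.7 in A159V IgG (1.37 ± 0.21, adjusted p = 7.0e-04). It was also higher under anti-PD1 (1.00 ± 0.20, adjusted p = 0.0045). Vsir (VISTA), an inhibitory ligand of T cells, was lower under IgG (-1.75 ± 0.41, adjusted p = 0.0078) and under anti-PD1 (-3.44 ± 0.42, adjusted p = 1.9e-04). Its CPM was 1.48 to 3.36 in WT IgG, 3.99 to 7.96 in WT anti-PD1, 0.370 to 0.957 in A159V IgG and 0.501 to 0.585 in A159V anti-PD1. It was thus highest in WT anti-PD1, as were the leukocyte markers below, and the part of leukocytes in its level was not tested. Clec2d, a ligand of an inhibitory NK cell receptor, had 15.7 to 23.2 CPM in WT IgG and 2.87 to 6.15 in A159V IgG (-2.04 ± 0.30, adjusted p = 6.5e-04), and Lgals1, which encodes galectin 1, was also lower (-0.997 ± 0.22, adjusted p = 0.0063). Under anti-PD1, 3 of the 21 were DEGs, against 21.4% of all genes (median -0.14, against 0.06), Nectin1 higher and Vsir and Ceacam1 lower (Ceacam1 -2.42 ± 0.62, adjusted p = 0.015, kept in 16 of 19 alternatives). Ceacam1 had 1.14 to 3.67 CPM in WT anti-PD1 and 0.167 to 0.691 CPM (3 to 13 counts) in A159V anti-PD1.

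Of 16 tested genes of adenosine and tryptophan metabolism, 11 were DEGs between the genotypes under IgG, 7 higher and 4 lower in A159V, against 28.0% of all genes (median 0.24, against 0.02). Under anti-PD1 9 were DEGs, 6 higher and 3 lower, against 21.4% (median 0.20, against 0.06). Ido2, the paralog of Ido1, was lower under IgG, with 54.8, 47.0 and 50.5 CPM in WT and 15.5, 28.5 and 22.3 in A159V (-1.20 ± 0.21, adjusted p = 0.0017). It did not differ past the threshold under anti-PD1 (-0.14 ± 0.21, adjusted p = 0.66). Kyat3, an aminotransferase of the kynurenine pathway, was higher in A159V under both antibodies (0.72 ± 0.14 and 0.88 ± 0.14, adjusted p = 0.0031 and 0.0011). Alpl, an alkaline phosphatase, was higher by 1.90 ± 0.34 and 1.88 ± 0.33 (adjusted p = 0.0018 and 0.0020) at 2.02 to 2.84 CPM in A159V, Slc28a2, a nucleoside transporter, was higher under IgG (2.15 ± 0.41, adjusted p = 0.0026), and Cd38, which consumes NAD, was lower under both (-0.97 ± 0.27 and -1.69 ± 0.27, adjusted p = 0.019 and 0.0011).

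Of 18 tested genes for other secreted or enzymatic suppressors, 8 were DEGs under IgG, 3 higher and 5 lower in A159V, against 28.0% of all genes (median -0.05, against 0.02). Under anti-PD1 7 were DEGs, all lower, against 21.4% (median -0.04, against 0.06). Tgfb1 was higher under IgG, with 92.5 to 103 CPM in WT and 133 to 143 in A159V (0.52 ± 0.11, adjusted p = 0.0041). Tgfb3, another TGF-beta, was lower under both antibodies (-0.79 ± 0.24 and -1.33 ± 0.24, adjusted p = 0.028 and 0.0024), a call kept in 16 of 20 alternatives under IgG. Ptges, which makes prostaglandin E2, was lower under both (-0.79 ± 0.16 and -0.86 ± 0.16, adjusted p = 0.0037 and 0.0026), as was Csf1, a growth factor of macrophages (-0.50 ± 0.15 and -0.61 ± 0.15, adjusted p = 0.024 and 0.012), with calls kept in 16 and 17 of 20 alternatives. Il1rn, which encodes the IL-1 receptor antagonist, rose in WT with anti-PD1 from 0.251 to 0.306 CPM under IgG to 1.17 to 1.76 CPM (2.35 ± 0.41, adjusted p = 0.031, kept in 12 of 19 alternatives) and was higher in A159V than in WT under IgG (3.28 ± 0.40, adjusted p = 2.0e-04). Both fold changes of Il1rn rest on 5 counts in each WT IgG sample, and it passed the filter through the other groups, where it was higher.

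The genes whose pattern over the 12 samples was most like that of a member were found by the root mean square difference of log2 CPM centred on each gene's mean. For Nectin2, they were Lzic (0.0744) and Plod3 (0.0886), beside a root mean square of 0.354 for Nectin2 itself. For Pvr they were Zfp106 and Urb2 (0.0786 and 0.0813), and for Lgals9 they were Shisa5 and Ucp2 (0.0689 and 0.0869). For Cd276 they were Mttp and Slc39a14 (0.128 and 0.137), for Cd274 Trp53cor1 and Nfib (0.131 and 0.163), and for Cd47 Aida and Amd1 (0.0842 and 0.0903). For Ido1, the nearest were Tgtp1 and Gm4841, at 0.376 and 0.377 beside 0.631 for Ido1 itself, and for Cd80 they were Cdhr5 and Grik2 (0.353 and 0.375). Within the 8 tested genes, Pvr and Cd276 were nearest to each other, with a difference of 0.211.

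Markers of other cells moved with the groups. The summed CPM of 4 leukocyte markers was 3.49 to 12.8 under IgG and 25.1 to 38.8 under anti-PD1 in WT, and 3.29 to 3.70 and 3.00 to 4.52 in A159V. For 7 markers of T cells and NK cells it was 0.551 to 4.57, 16.7 to 32.9, 0.106 to 0.478 and 0.106 to 0.668 CPM in the same order, so both lists were highest in WT anti-PD1 in every sample. Of the T and NK cell markers, 5 were at or under 3 counts in all A159V IgG samples and 6 in all A159V anti-PD1 samples. Ptprc, the common leukocyte marker CD45, had 7.46 to 14.2 CPM in WT anti-PD1 and at most 2.81 CPM elsewhere, and Cd8a and Cd3e were at no more than 1 count in any A159V sample. The 8 macrophage and monocyte markers summed to 26.3 to 31.1 CPM in WT IgG, 33.5 to 48.2 in WT anti-PD1, 39.2 to 57.6 in A159V IgG and 41.8 to 45.3 in A159V anti-PD1, so all A159V IgG samples lay above all WT IgG samples. Most of this was Cd68, with 23.2 ± 2.80 CPM in WT IgG and 40.7 ± 8.45 in A159V IgG, while Adgre1 (F4/80) had at most 2 counts in any sample. Lyz2 and Csf1r also had higher means in A159V IgG than in WT IgG, while C1qa, C1qb, Tyrobp, Itgam and Adgre1 had lower ones. Tyrobp had 0.558 ± 0.441 CPM in WT IgG and 0.103 ± 0.106 in A159V IgG, and C1qb 0.612 ± 0.345 and 0.308 ± 0.0565. Of the 5 macrophage and monocyte markers tested, 1 was called higher and 1 lower in A159V under IgG, and 0 higher and 2 lower under anti-PD1.

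B cell markers summed to 3.76 to 6.17 CPM in WT IgG, 3.49 to 6.46 in WT anti-PD1, 7.01 to 8.09 in A159V IgG and 7.19 to 8.79 in A159V anti-PD1, and 1 of the 2 tested was called higher in A159V under both antibodies. Dendritic cell markers summed to 17.6 to 22.99, 18.8 to 27.1, 14.8 to 17.2 and 16.5 to 17.3 CPM in the same order, with 1 of the 5 tested called higher and 2 lower in A159V under IgG. Most of these sums was Zbtb46, with 13.6 ± 2.95 CPM in WT IgG and 12.7 ± 1.26 in A159V IgG and overlapping samples. Itgax had 0.719 ± 0.158 CPM in WT IgG and 1.30 ± 0.0419 in A159V IgG. Neutrophil markers summed to 0.159 to 2.08 and endothelial markers to 4.89 to 14.6 CPM over all samples. The 4 fibroblast markers summed to 234 to 598 CPM in WT and 130.4 to 226 CPM in A159V samples. Of the 4, 2 were called lower in A159V under IgG and 3 under anti-PD1, with 0 called higher. Most of the difference in the sums under IgG was Dcn, with 245 ± 81.5 CPM in WT and 96.4 ± 23.2 in A159V. Pdgfra went the other way under IgG, with 45.9 ± 21.5 CPM in WT and 70.5 ± 12.5 in A159V and overlapping samples. The line is labelled a colon adenocarcinoma, but its epithelial markers were near 0 in all groups, with Epcam at no more than 2 counts in any sample and Krt8, Krt18 and Krt19 at no more than 1.68 CPM. In the A159V IgG samples, Cd80, Nectin2, Pvr, Cd276 and Lgals9 were higher than in WT IgG. The sums of macrophage and B cell markers were higher there as well, for the most part through Cd68, Cd79a and Cd79b, while single macrophage markers went both ways. The sums of T and NK cell, dendritic cell and fibroblast markers were lower there, although the means of Itgax and Pdgfra were higher. The part of other cells in the level of any member was not tested, and in bulk samples fewer cells of a type and less RNA per cell cannot be told apart.

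**Figure D5:**
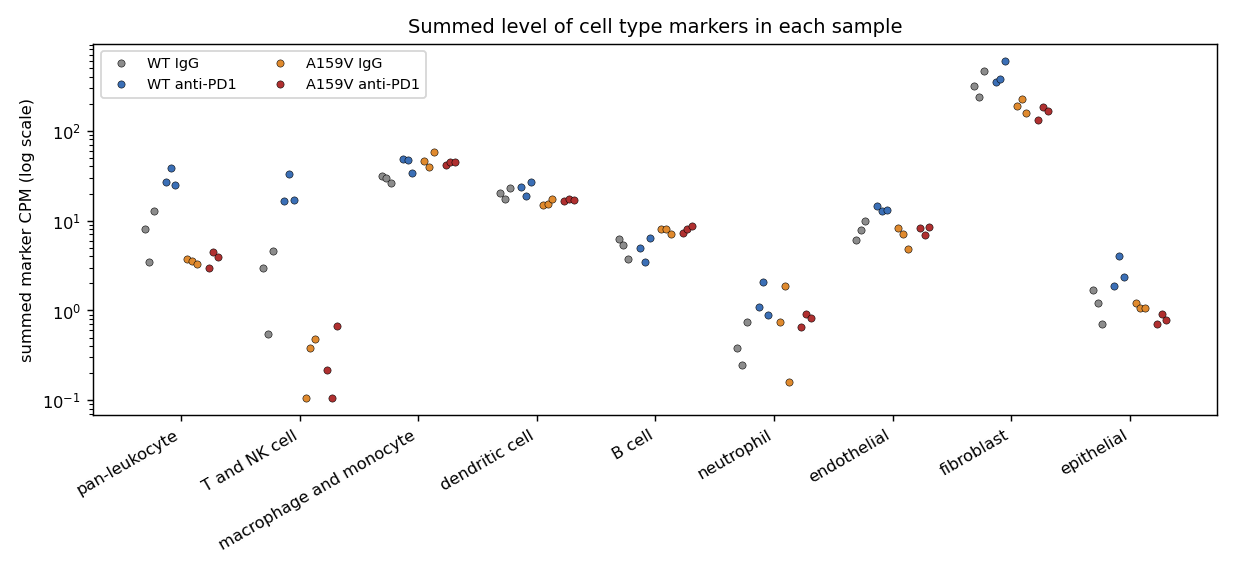
Summed CPM of the markers of 9 cell types in each sample on a log axis, coloured by group. Leukocyte and T and NK cell sums are highest in the 3 WT anti-PD1 samples (25.1 to 38.8 and 16.7 to 32.9 CPM), and fibroblast sums are higher in WT than in A159V samples.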

How the data were processed

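Bulk RNA-seq was measured in tumor cells of 12 mice, 3 in each of 4 groups. The authors sequenced polyA libraries as paired reads, aligned them to mm10 with STAR and obtained gene counts by summarizeOverlaps. The counting mode, strand setting and tool versions are not given in the sources used here. The authors deposited raw counts per gene, without normalization, and all 12 columns were matched to samples by label. Of 33219 features, 31980 matched GENCODE M21, which gave symbols, positions and exon lengths. Total counts were 14053582 to 21949942 per sample, and 3 counts, the floor, equal 0.137 to 0.213 CPM. Floors cover counting error only.

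All 12 samples entered 1 quasi-likelihood model with a term per group, in edgeR 4.0.16 in R 4.3.3, after filterByExpr (14340 genes) and TMM scaling. P-values were two-sided and adjusted by Benjamini-Hochberg over all genes tested. A DEG needed an adjusted p below 0.05 together with a log2 fold change beyond 0.3 in either direction, a limit that the study also used. P-values measure the spread between these mice. Log2 CPM used a prior count of 2. The fit was tested on simulated data. Alternatives were RLE and upper-quartile scaling, no filter, at least 10 counts in every sample, DESeq2 1.42.0, voom in limma 3.58.1, only the groups compared, the replicate number as a block, no limit on the fold change, and each sample left out. Added after the data were seen were the genotype contrast averaged over treatments and the alternatives for genes of other lists.

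Replicate numbers come from the titles and belong to different mice. The members and lists were chosen with earlier results of these data known. Genes named are the 10 members, their direct partners, from each other list up to 3 called genes with the smallest p in each genotype comparison and in anti-PD1 versus IgG in WT, and for each tested member the 2 genes with the most similar pattern. A gene that this rule would name is not reported here. Single markers named in the text were chosen after their values were seen. Promoter windows came from RefSeq for GRCm38.p6, in which 8 of the 10 members had an entry. Tables were made with pandas 2.3.3 and numpy 2.4.6 in Python 3.11.15, and plots with matplotlib 3.10.9. Single-cell data of the study were not used here.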

Additional observations from a re-analysis of the deposited data

How the results depend on the processing

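The 5 members called under IgG numbered 4 to 7 over the alternatives, the 2 under anti-PD1 numbered 1 to 3, and the value of 1 came from requiring at least 10 counts in every sample, which left Cd80 out of the test. The 0 members called for anti-PD1 in WT became 1 with DESeq2, 2 with the replicate block and 0 to 2 with a sample left out, the 2 without WT IgG replicate 4 being Cd276 and Pvr. For the interaction, 0 became 1 with DESeq2, 3 with the replicate block (Cd276, Lgals9 and Ido1) and 0 to 1 with a sample left out. Same-numbered samples were different mice, and the correlations of their deviations ran from -0.18 to 0.20 over 13 pairs, 3 of them over 0.1. With 3 samples per group, these correlations cannot settle whether same-numbered samples shared a batch. The block leaves 4 residual degrees of freedom in place of 8. With it, Ido1 was also called lower under IgG and Pvr higher under anti-PD1. Ido1 was called lower under IgG with upper-quartile scaling, no filter and without WT IgG replicate 4 or WT anti-PD1 replicate 3 too, but fell to -0.64 (adjusted p = 0.22) without WT IgG replicate 1 and to -0.08 (adjusted p = 0.83) averaged over the treatments, and Cd274 was called lower with upper-quartile scaling (-0.62), DESeq2 (-0.56) and without WT IgG replicate 1 (-0.68) or A159V anti-PD1 replicate 1. Under anti-PD1, Cd274 was called lower in a fit of only the groups compared (-0.56) and without WT IgG replicate 1 (-0.55).

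Signs turned for small changes, none of them called. With the replicate block, Cd47 changed to 0.085 for the genotypes under IgG, to -0.15 for anti-PD1 in A159V and to -0.21 for the interaction, Nectin2 to -0.056 for anti-PD1 in WT and Cd274 to -0.14 for the interaction, which was -0.052 with voom. Upper-quartile scaling gave -0.0059 for Nectin2 and -0.013 for Cd47 with anti-PD1 in WT. With a sample left out, Cd47 ranged from -0.22 to 0.0019 for the genotypes under anti-PD1, -0.046 to 0.10 for anti-PD1 in WT, -0.12 to 0.26 for anti-PD1 in A159V and -0.15 to 0.22 for the interaction. For anti-PD1 in A159V, the ranges were -0.14 to 0.019 for Pvr, -0.36 to 0.26 for Cd80, -0.16 to 0.047 for Nectin2 and -0.029 to 0.44 for Cd274, and for the interaction -0.32 to 0.15 for Cd274 and -0.20 to 0.0071 for Nectin2. The causes of these changes were not tested.

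Over all genes, the 4010 DEGs under IgG became 1399 in a fit of only the groups compared and 2578 to 4717 with a sample left out, with 2669 and 2578 without A159V IgG replicate 1 or 2. The 3075 under anti-PD1 became 2014 with at least 10 counts in every sample, 5320 with only the groups compared, 5018 with the block, and 1519 to 4134 with a sample left out, with 1983 and 1519 without WT anti-PD1 replicate 2 or 3 and 1672 without A159V anti-PD1 replicate 3. The 90 for anti-PD1 in WT became 771 without a filter, 25 with at least 10 counts, 1441 with DESeq2, 188 with voom, 0 with only the groups compared, 4650 with the block and 1 to 3458 with a sample left out, the highest without WT IgG replicate 4. The 0 for anti-PD1 in A159V became 2 with DESeq2, and the 1 for the interaction became 0 with upper-quartile scaling, 37 without a filter, 294 with DESeq2, 2760 with the block and 0 to 1182 with a sample left out. None of the calls named from other lists changed sign under the alternatives run. Those for Pdcd1 and Il1rn with anti-PD1 in WT were lost when any 1 of WT IgG replicate 1, WT IgG replicate 2 or the 3 WT anti-PD1 samples was left out. The call of Pdcd1 was also lost without A159V IgG replicate 1 or 2 or any A159V anti-PD1 sample. That of Il1rn was also lost without A159V anti-PD1 replicate 3.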
